A study of Rattus norvegicus with 22 samples.

Results

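The 8 genes described here, Srebf2, Insig1, Hmgcs1, Idi1, Fdps, Fdft1, Sqle and Cyp51, belong to the sterol synthesis programme of the transcription factor SREBP2, and were chosen by name from the 17284 genes of an RNA sequencing table of rat microglia. All 8 were in the table, and all 8 were among the 9691 genes tested, which had at least 1 FPKM in at least 3 samples (FPKM are fragments per kilobase of transcript scaled to the fragments of the library, so they allow levels of different genes to be compared). No gene of sterol uptake is among the 8, and genes of uptake are given further on with the rest of the pathway. Microglia are the resident macrophages of the brain, here panned on an antibody to CD11b (clone OX42) from brains of Sprague-Dawley rats at postnatal day 21 without cerebellum or spinal cord. The groups were cells lysed without culture (Acute, n = 3), cells after 8 days in serum-free medium (TIC, n = 6), and cells of the same 8-day culture that received fetal calf serum at 10% at its end. The serum groups are named FCS 1d (5 libraries), FCS 3d (4 libraries) and FCS 5d (4 libraries) after the 1, 3 or 5 days in serum. The labels do not say what the medium named TIC contains. In the published description of this culture method the letters stand for TGF-beta, IL-34 and cholesterol.

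Cells keep their cholesterol level by feedback on SREBP2, which Srebf2 encodes. When sterol in the endoplasmic reticulum is low, the escort protein SCAP carries SREBP2 to the Golgi, where proteases free the part that enters the nucleus and raises transcription of the enzymes of the mevalonate and sterol pathway, of genes of sterol uptake, and of Srebf2 and Insig1 themselves. When sterol is high, INSIG proteins hold SCAP and SREBP2 back. RNA levels of the target genes are commonly read as a sign of SREBP2 activity, but the protein, its cleavage and the sterol content of the cells were not measured here.

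The promoters of the genes are shown because the programme is defined by sequences that SREBP2 binds there, together with CCAAT boxes bound by NF-Y. A RefSeq table of assembly GRCr8 held the promoter, from 250 bases before to 50 after the start, of 6 of the 8 genes (all but Fdft1 and Sqle). The windows of Srebf2 (chr7:115543057-115543356, plus strand), Insig1 (chr4:8057720-8058019, minus strand), Hmgcs1 (chr2:53382054-53382353, plus strand) and Fdps (chr2:176804767-176805066, minus strand) follow, 5′ to 3′ on the strand of the gene, for the regulators and for the enzymes with the smallest and the largest difference in serum. Capitals mark matches, on either strand, to ATCACNCCA or TCACNCCAC (overlapping parts of the classical sterol regulatory element), to TCACNCGAG (a variant of it), to CCAAT and to the E-box CACGTG.
Srebf2: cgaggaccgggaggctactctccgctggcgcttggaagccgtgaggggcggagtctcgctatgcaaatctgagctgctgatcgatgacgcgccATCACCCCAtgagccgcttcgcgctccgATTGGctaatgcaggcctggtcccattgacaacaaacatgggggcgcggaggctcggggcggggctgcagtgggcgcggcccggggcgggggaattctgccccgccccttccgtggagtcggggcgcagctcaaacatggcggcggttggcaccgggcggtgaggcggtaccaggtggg
Insig1: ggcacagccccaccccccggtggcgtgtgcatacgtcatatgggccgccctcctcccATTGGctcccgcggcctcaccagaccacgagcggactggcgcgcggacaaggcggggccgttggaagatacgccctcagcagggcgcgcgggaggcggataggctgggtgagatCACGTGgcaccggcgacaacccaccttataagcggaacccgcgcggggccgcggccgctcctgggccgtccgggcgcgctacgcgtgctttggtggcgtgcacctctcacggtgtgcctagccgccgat
Hmgcs1: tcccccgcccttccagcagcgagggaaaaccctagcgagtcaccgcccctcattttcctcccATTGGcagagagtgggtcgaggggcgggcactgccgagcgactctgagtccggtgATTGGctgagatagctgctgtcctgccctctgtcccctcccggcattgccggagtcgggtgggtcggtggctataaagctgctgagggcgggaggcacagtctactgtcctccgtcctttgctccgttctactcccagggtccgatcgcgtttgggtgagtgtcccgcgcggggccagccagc
Fdps: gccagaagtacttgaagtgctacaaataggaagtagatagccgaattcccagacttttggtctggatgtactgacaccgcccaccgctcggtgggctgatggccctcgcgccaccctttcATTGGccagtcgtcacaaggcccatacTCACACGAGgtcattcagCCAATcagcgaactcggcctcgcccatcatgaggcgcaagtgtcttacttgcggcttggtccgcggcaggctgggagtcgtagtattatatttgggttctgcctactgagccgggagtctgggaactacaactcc

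Srebf2 had ATCACNCCA 157 bases before its start, a match that 0.768% of the 33469 promoters in the RefSeq table hold. Fdps had TCACNCGAG at -103, between CCAAT boxes at -130 and -85, and 0.415% of all promoters hold that variant. CCAAT, read in either direction, was in 5 of the 6 windows (Srebf2, Insig1, Hmgcs1, Idi1 and Fdps) against 37.5% of all promoters. Hmgcs1 and Idi1 each had 2 CCAAT matches. Insig1 had CACGTG at -79, which 6.42% of all promoters hold, and TCACNCCAC was in 0 of the 6 windows against 1.12% of all. GGGCGG, the core bound by SP1 and not marked above, was in 5 of the 6 windows and in 33.1% of all promoters. Of the further pathway genes listed below, 21 had a promoter in the RefSeq table. CCAAT was in 15 of these 21 and GGGCGG in 16, so neither is particular to the 8 genes. ATCACNCCA, TCACNCCAC and TCACNCGAG were each in 0 of the 21. These are matches of letters in a window, not measured binding.

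Several features of the libraries bear on the values. Summed FPKM was 564301 to 696703 in 6 libraries (all 3 of Acute, 2 of TIC and 1 of FCS 1d) and 335470 to 434577 in the other 16. Depth relative to the library TIC 1, read from the steps between low values, was 0.859 to 4.79 times, and absolute depth is unknown. Of 12 microglia marker genes none was at 0 in any whole group, and their share of summed FPKM was 0.277 to 0.527% in TIC, 0.488 to 1.50% over the FCS groups and 3.51 to 4.70% in Acute. Acute also held markers of other cells, among them 9 granulocyte and monocyte genes at 0.324 to 3.27% of summed FPKM and 10 oligodendrocyte genes at 0.0355 to 0.0560%, against at most 0.0201% and 0.0173% in the cultured groups. All 5 red blood cell markers were at 0 in every cultured library. Between cultured groups, 8 astrocyte genes summed to 7.75 to 20.3 FPKM in FCS 1d, 12.0 to 28.6 in FCS 3d and 8.21 to 16.7 in FCS 5d, against 0.940 to 5.40 in TIC, with Gfap, Aqp4 and Sox9 at 0 in all of them, and the part of that difference, and of the microglia share, in the results was not tested. In bulk samples, fewer cells of a type and less RNA per cell cannot be told apart.

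Most of the 8 genes were lower in serum than in the serum-free TIC medium, and already after 1 day. After 1 day, 5 of the 8 genes were lower than in TIC and none was higher (limma, Benjamini-Hochberg adjusted p under 0.05 over all tested genes), where 1.70% of all tested genes were lower. After 3 days 6 of the 8 were lower, against 5.95% of all tested genes, and after 5 days the same 6 were lower, against 8.10%. The 5 genes lower at 1 day were Srebf2, Insig1, Fdps, Fdft1 and Cyp51, and Sqle was added at 3 and 5 days. The median log2 difference of the 8 genes was -0.99 in FCS 1d, -1.13 in FCS 3d and -1.04 in FCS 5d, against -0.01, -0.06 and -0.08 for all tested genes. Differences are on the log2(FPKM + 1) scale, which understates the change of low genes. The 3 comparisons share the TIC samples, so they are not independent of one another.

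Srebf2, the transcription factor itself and a target of its own product, had 7.63, 8.52, 5.60, 9.65 and 12.9 FPKM in the FCS 1d libraries, against 14.8 (lowest), 21.1 (median) and 34.9 FPKM (highest) in TIC. FCS 3d libraries held 6.82, 6.67, 10.5 and 6.85 FPKM, and FCS 5d libraries 10.0, 9.52, 11.0 and 10.3 FPKM. Every library with serum lay below every TIC library. How many of all tested genes were separated in this way was not counted, for Srebf2 or for the genes below. The log2 difference from TIC was -1.30 ± 0.24 (SE) in FCS 1d (limma adjusted p = 0.0027), -1.46 ± 0.26 in FCS 3d (adjusted p = 0.0007) and -1.07 ± 0.26 in FCS 5d (adjusted p = 0.007). By group mean the order was TIC (23.4 ± 7.41, SD), Acute (20.3 ± 7.12), FCS 5d (10.2 ± 0.634), FCS 1d (8.86 ± 2.70) and FCS 3d (7.71 ± 1.86 FPKM). TIC and Acute overlapped, as did the 3 serum groups, and the gap lay between Acute and FCS 5d.

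Insig1, which encodes the retention protein of the feedback loop, differed most of the 8 in all 3 comparisons with TIC. Its FPKM were 6.31, 5.87, 7.52, 5.70 and 19.5 in FCS 1d, 7.42, 5.36, 7.70 and 6.01 in FCS 3d, and 12.6, 5.39, 8.11 and 9.83 in FCS 5d, against 26.2 (lowest), 43.1 (median) and 66.6 (highest) in TIC. No serum library reached the lowest TIC library, and the FCS 1d library at 19.5 FPKM was the 1 serum library with a high summed FPKM. The log2 difference was -2.27 ± 0.30 in FCS 1d (limma adjusted p = 6.2e-05), -2.52 ± 0.32 in FCS 3d (adjusted p = 1.4e-05) and -2.17 ± 0.32 in FCS 5d (adjusted p = 4.8e-05). In FPKM + 1, not in FPKM, that is 4.82-fold, 5.73-fold and 4.50-fold lower. The related retention gene Insig2 held 6.74 ± 3.28 FPKM in FCS 1d, 7.90 ± 5.50 in FCS 3d and 8.96 ± 3.61 in FCS 5d, against 7.28 ± 3.11 FPKM in TIC, with log2 differences of -0.14, -0.04 and 0.28 and 95% intervals within -0.90 and 1.09.

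Of the enzymes, those of the early isoprenoid steps did not pass the test in any serum group. Hmgcs1, the cytosolic synthase that makes HMG-CoA, had 8.76, 3.80, 4.00, 5.27 and 7.46 FPKM in FCS 1d, against 2.96 (lowest), 6.47 (median) and 16.2 (highest) in TIC, and the groups overlapped. FCS 3d libraries held 3.29, 4.25, 8.29 and 2.22 FPKM, and FCS 5d libraries 8.00, 4.34, 4.87 and 4.60 FPKM. The log2 difference from TIC was -0.24 (95% interval -0.92 to 0.43), -0.61 (-1.34 to 0.11) and -0.31 (-1.03 to 0.42) in FCS 1d, 3d and 5d, with limma adjusted p of 0.88, 0.32 and 0.66. A fall of the size seen for Insig1 lies outside these intervals.

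Idi1 encodes the isomerase that interconverts the isoprenoid units IPP and DMAPP. It had 2.71, 3.16, 2.16, 1.40 and 10.5 FPKM in FCS 1d, 2.55, 3.29, 3.62 and 3.14 in FCS 3d, and 4.65, 4.64, 4.86 and 1.90 in FCS 5d, against 4.71 (lowest), 5.43 (median) and 6.69 (highest) in TIC. All FCS 3d libraries lay below TIC, but the log2 difference of -0.67 (95% interval -1.37 to 0.03) did not pass the test (limma adjusted p = 0.25), nor did -0.64 in FCS 1d (adjusted p = 0.42) or -0.45 in FCS 5d (adjusted p = 0.46). Without the library FCS 1d 5, at 10.5 FPKM, the FCS 1d difference was -1.001 (adjusted p = 0.035).

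Fdps makes farnesyl diphosphate, the branch point between sterols and prenylated proteins, and had the highest level of the 8 genes in every group. Its FPKM were 39.0, 30.8, 45.6, 45.7 and 102 in FCS 1d, 33.9, 43.0, 28.0 and 39.2 in FCS 3d, and 25.7, 45.9, 32.2 and 30.2 in FCS 5d, against 67.0 (lowest), 121 (median) and 219.5 (highest) in TIC. Only the FCS 1d library with a high summed FPKM overlapped the TIC libraries, and the highest TIC library was also one with a high sum. The log2 difference was -1.29 ± 0.29 in FCS 1d (limma adjusted p = 0.011), -1.72 ± 0.31 in FCS 3d (adjusted p = 0.00071) and -1.83 ± 0.31 in FCS 5d (adjusted p = 0.00024). The FCS 1d call was lost when only the 2 groups were fitted (adjusted p = 0.066).

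Fdft1 and Sqle carry the path into sterols, as squalene synthase and as squalene epoxidase. Fdft1 had 10.3, 10.1, 6.50, 7.64 and 6.07 FPKM in FCS 1d, 6.25, 8.07, 5.90 and 6.24 in FCS 3d, and 6.90, 7.90, 9.55 and 6.61 in FCS 5d, against 10.6 (lowest), 17.6 (median) and 19.9 (highest) in TIC. All serum libraries lay below TIC, by -0.96 ± 0.21, -1.20 ± 0.22 and -1.01 ± 0.22 on the log2 scale (limma adjusted p = 0.0097, 0.001 and 0.0036 in FCS 1d, 3d and 5d). Sqle had 15.8, 12.1, 8.62, 11.0 and 15.7 FPKM in FCS 1d, 9.59, 7.88, 14.0 and 9.58 in FCS 3d, and 13.8, 10.4, 9.95 and 6.13 in FCS 5d, against 16.4 (lowest), 21.7 (median) and 29.4 (highest) in TIC. Its serum libraries all lay below TIC as well. The log2 difference was -0.78 ± 0.28 in FCS 1d (limma adjusted p = 0.17), -1.05 ± 0.30 in FCS 3d (adjusted p = 0.024) and -1.10 ± 0.30 in FCS 5d (adjusted p = 0.015). The FCS 3d call of Sqle was lost without FCS 3d 1, FCS 3d 2 or FCS 3d 4 (adjusted p = 0.067, 0.093 and 0.066), and the FCS 5d call without FCS 5d 4 (adjusted p = 0.085).

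Cyp51, the lanosterol demethylase after the ring closes, had the narrowest TIC range of the 8 relative to its level, at 31.4 (lowest), 34.1 (median) and 37.2 FPKM (highest). FCS 1d libraries held 14.5, 16.5, 15.2, 14.7 and 22.2 FPKM, FCS 3d libraries 17.3, 20.0, 18.0 and 15.1, and FCS 5d libraries 22.4, 16.2, 20.4 and 17.0. Every serum library lay below every TIC library. The log2 difference was -1.02 ± 0.19 in FCS 1d (limma adjusted p = 0.0028), -0.93 ± 0.21 in FCS 3d (adjusted p = 0.0044) and -0.83 ± 0.21 in FCS 5d (adjusted p = 0.008).

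**Figure D1:**
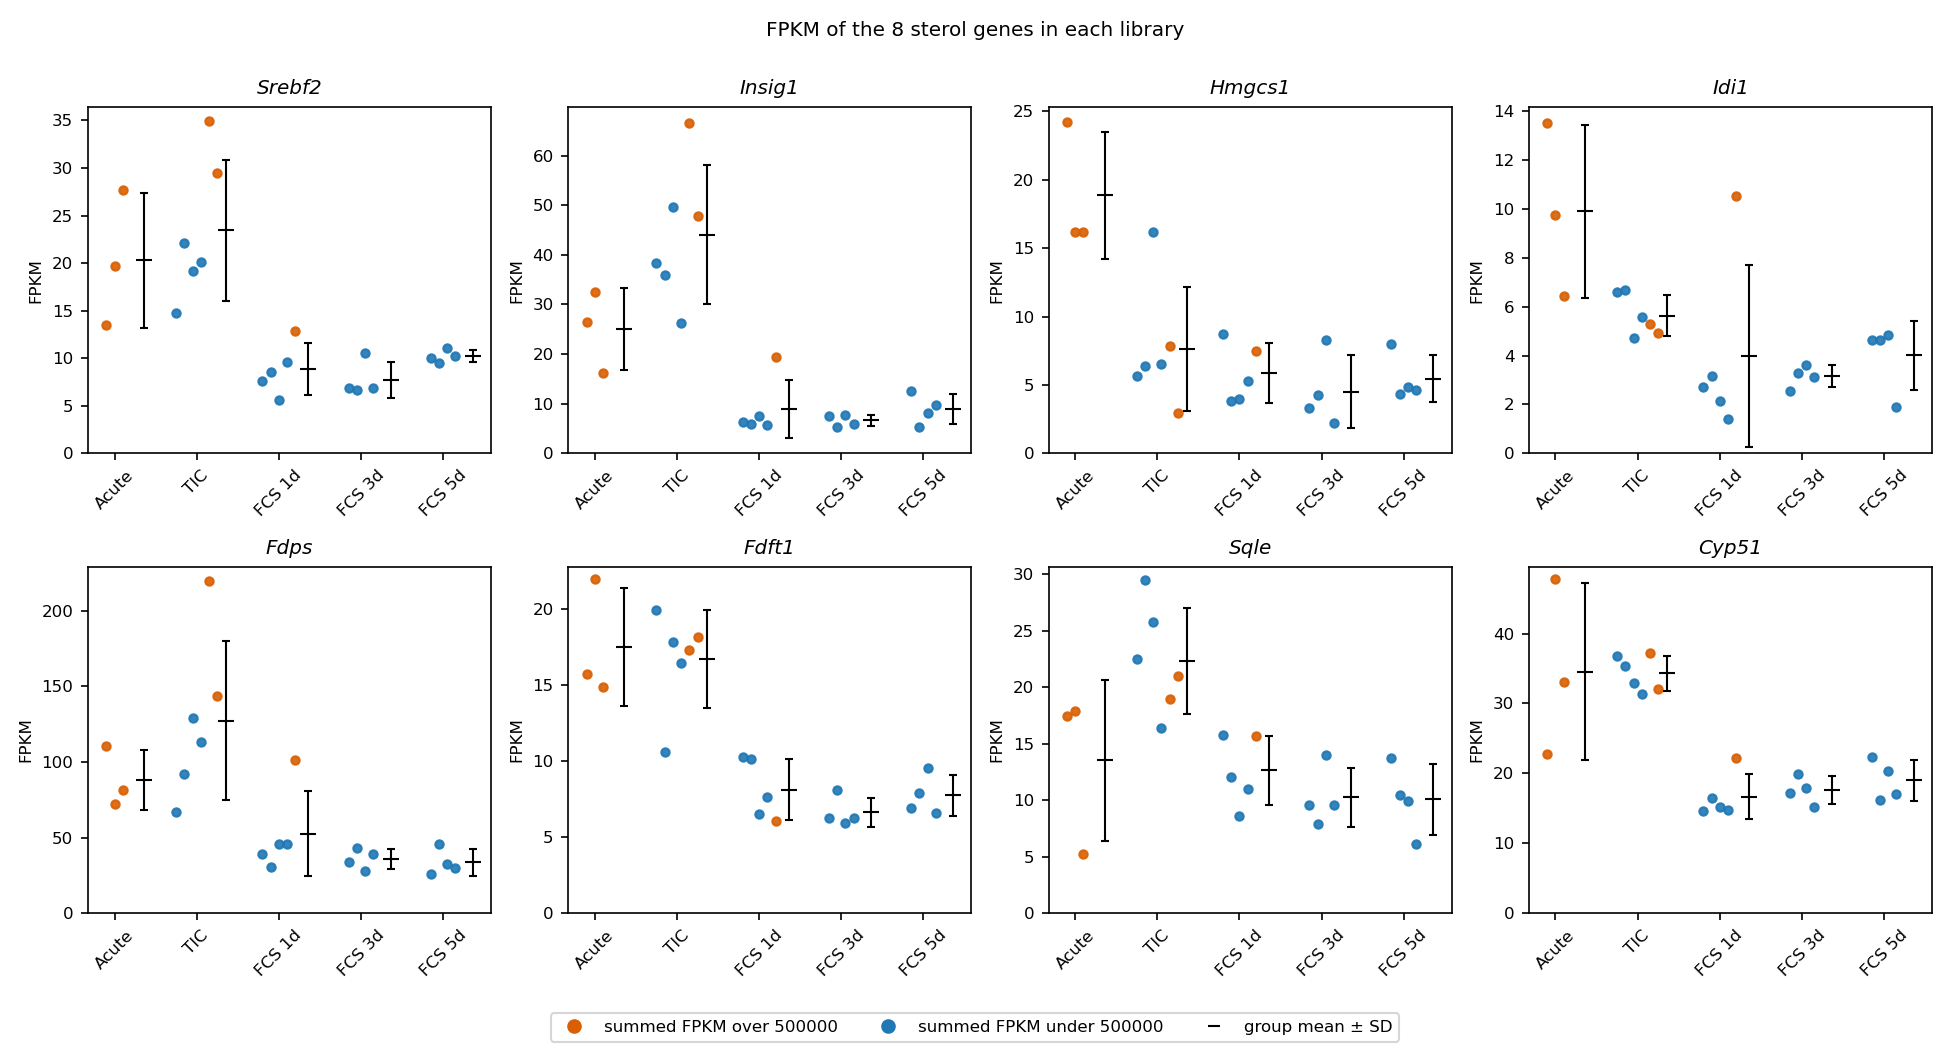
FPKM (vertical axis, from 0) of each of the 8 genes in each of the 22 libraries, by group (horizontal axis). Points are libraries, orange where summed FPKM was over 500000 and blue where it was under, and the black bar beside each group is its mean ± SD. For Srebf2, Insig1, Fdft1, Sqle and Cyp51 all serum libraries lie below all TIC libraries, whereas Hmgcs1 overlaps. The share of all tested genes separated in this way was not counted.

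**Figure D2:**
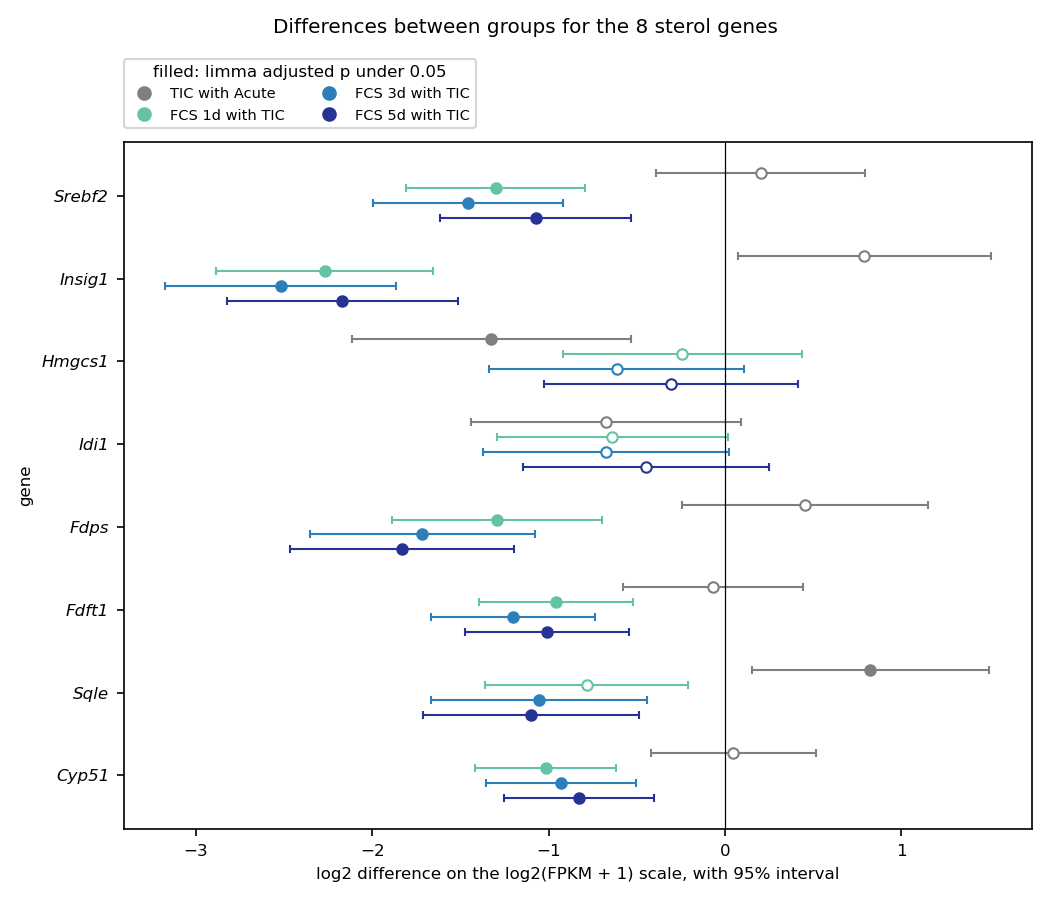
Log2 difference on the log2(FPKM + 1) scale (horizontal axis) with its 95% interval for each gene (vertical axis) in 4 comparisons. Filled points passed limma's adjusted p under 0.05. The 3 serum groups lie 0.83 to 2.52 below TIC for the genes that passed, and the grey points of TIC with Acute lie on both sides of 0.

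With libraries of a low summed FPKM alone (4 in each of TIC, FCS 1d, FCS 3d and FCS 5d), 7 of the 8 genes were lower in FCS 1d, Idi1 and Sqle being added, and the same 6 as above in FCS 3d and in FCS 5d. Of all tested genes, 283, 977 and 1251 were called in either direction in FCS 1d, 3d and 5d with all libraries. With the libraries of a low sum alone 615, 1690 and 1931 were called in either direction. The share of them that was lower is not given here, so it cannot be set beside the counts of the 8 genes. Insig1 was at -2.36, -2.31 and -1.97 on the log2 scale in FCS 1d, 3d and 5d, and Srebf2 at -1.19, -1.21 and -0.83, all at a limma adjusted p of 0.0082 or less. Under median-of-ratios rescaling the same number of genes was lower as above in each comparison, 5, 6 and 6, where 2.17%, 6.80% and 8.19% of all tested genes were. In smaller subsets fewer passed: with the 10 libraries that list over 800 tested genes at 0 (3 of TIC, 2 of FCS 1d, 2 of FCS 3d and 1 of FCS 5d), 1, 2 and 0 genes were lower. With the 2 TIC libraries and the 1 FCS 1d library of a high summed FPKM, where none of all tested genes was called, the log2 difference was -1.49 for Insig1, -1.41 for Fdft1, -1.25 for Srebf2, -0.80 for Fdps and -0.61 for Cyp51. Of 544 log2 differences of the 8 genes from TIC under all alternatives, 542 were below 0, the others being Hmgcs1 at 0.51 and Idi1 at 0.92 in that last subset. These alternatives refit mostly the same libraries, and all 8 genes were already below 0 in each main comparison. The 542 are therefore no independent support. In the main fit 4933, 5298 and 5406 of the 9691 tested genes were below 0 in FCS 1d, 3d and 5d.

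The 8 genes were not seen to differ between 1, 3 and 5 days of serum. All serum groups had 8 days in culture, so more days in serum also meant fewer days before it. These cannot be told apart, and the groups are separate libraries, not a series from the same cells. None of the 8 genes was called between serum durations (limma), and none had an unadjusted p under 0.05 in FCS 3d with FCS 1d, FCS 5d with FCS 1d or FCS 5d with FCS 3d. Among all tested genes 1.08%, 5.38% and 0.629% were called in these comparisons. For FCS 5d with FCS 1d, log2 differences of the 8 ran from -0.54 (Fdps, 95% interval -1.20 to 0.12) to 0.23 (Srebf2, -0.33 to 0.79).

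Culture for 8 days in TIC medium, set against Acute, moved the 8 genes in no common direction. Sqle was higher and Hmgcs1 lower, so 2 of the 8 were called where 42.4% of all tested genes were called in either direction. Hmgcs1 fell to 2.96 (lowest), 6.47 (median) and 16.2 FPKM (highest) in TIC, against 24.2, 16.1 and 16.2 FPKM in Acute, a log2 difference of -1.32 ± 0.38 (limma adjusted p = 0.0078). The single TIC library at 16.2 FPKM overlapped Acute, and without Acute 1 the difference was -1.14 (adjusted p = 0.05). Sqle had 16.4 (lowest), 21.7 (median) and 29.4 FPKM (highest) in TIC, against 17.4, 17.8 and 5.27 FPKM in Acute, a log2 difference of 0.82 ± 0.32 (adjusted p = 0.045). That value rests on Acute 3, without which it was 0.30 (adjusted p = 0.43), and the call was also lost without TIC 1, TIC 2, TIC 3 or TIC 6 (adjusted p = 0.062, 0.083, 0.074 and 0.053).

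The other 6 genes did not pass the test between TIC and Acute. Insig1 was at 0.79 (95% interval 0.07 to 1.51, limma adjusted p = 0.071), Fdps at 0.46, Srebf2 at 0.20, Cyp51 at 0.05, Fdft1 at -0.07 and Idi1 at -0.67 on the log2 scale. The comparison depends on how libraries are scaled, because all Acute libraries and 2 of the 6 TIC libraries have a high summed FPKM. Median-of-ratios rescaling moved the median log2 difference of all tested genes to -0.0011, against -0.29 as deposited, and the share of calls that were higher to 50.6%, against 34.7%. So rescaled, Insig1 was at 1.12 (adjusted p = 0.0055), Sqle at 1.15 (adjusted p = 0.01) and Fdps at 0.80 (adjusted p = 0.015), all higher in TIC, and Hmgcs1 at -0.98 was not called (adjusted p = 0.064). Acute libraries also held the markers of other cells given above, whose part in these values was not tested.

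Against Acute, the serum groups were low as well. In FCS 1d 6 of the 8 genes were lower than in Acute (25.9% of all tested genes were lower), in FCS 3d 7 (27.4%) and in FCS 5d 7 (27.9%), and none was higher. Sqle was the gene not called in any of these, at log2 0.04, -0.23 and -0.27, and Fdps was not called in FCS 1d (-0.84, limma adjusted p = 0.061). That value of Fdps passed at -1.12 with a replicate block (adjusted p = 0.0016) and at -1.10 without FCS 1d 5 (adjusted p = 0.0083), and was -0.0086 with the division by summed FPKM as a term (adjusted p = 0.99). Hmgcs1 fell in all 3, by 1.57, 1.94 and 1.63 on the log2 scale (adjusted p = 0.0033, 0.00079 and 0.0034). All Acute libraries have a high summed FPKM and no FCS 3d or FCS 5d library has, so for FCS 3d and FCS 5d that division and the comparison cannot be told apart within the 2 groups compared. Under median-of-ratios rescaling 4, 5 and 3 of the 8 genes were lower in FCS 1d, 3d and 5d than in Acute, where 18.5%, 19.0% and 19.2% of all tested genes were, and the median of all tested genes was 0.01, -0.02 and -0.01, against -0.29, -0.35 and -0.38 as deposited. With the division as a term in the fit over all groups, 3, 2 and 2 of the 8 genes were lower in FCS 1d, 3d and 5d than in Acute. The share of all tested genes lower under that term is not given here, so these counts stand without a background.

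Added over the 8 genes, FPKM were 90.8 to 196 in FCS 1d, 87.1 to 98.5 in FCS 3d and 86.6 to 104 in FCS 5d, against 211 to 408 in TIC, and 201 to 244 in Acute. As a share of each library's summed FPKM this was 0.0221 to 0.0291%, 0.0213 to 0.0251% and 0.0216 to 0.0310% in the serum groups, 0.0431 to 0.0767% in TIC and 0.0289 to 0.0421% in Acute. On that share TIC lay above every other library of the study, and the Acute range overlapped those of FCS 1d and FCS 5d. Fdps was the largest part of these sums.

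The rest of the pathway was covered by a list of 24 further genes, all of which passed the filter. In serum against TIC, 0 of the 24 were called after 1 day (limma, with 8 at an unadjusted p under 0.05, 6 of them lower), 4 were lower after 3 days (Lss, Msmo1, Sc5d and Npc1) and 4 after 5 days (Msmo1, Sc5d, Npc1 and Lipa), where 1.70%, 5.95% and 8.10% of all tested genes were lower. None was higher. Acat2, which makes acetoacetyl-CoA at the start of the pathway, was at -1.47 ± 0.42 in FCS 1d (limma adjusted p = 0.059) and passed, at -1.50, under median-of-ratios scaling (adjusted p = 0.028). Its level was low, at 0, 0, 1.40, 4.19 and 3.92 FPKM in FCS 1d, against 4.14 (lowest) and 7.83 (highest) in TIC. Msmo1 was at -0.94 in FCS 1d (adjusted p = 0.051) and passed, at -0.91, under the same scaling (adjusted p = 0.013) and, at -0.86, with a replicate block (adjusted p = 0.037). The median log2 difference of the list was -0.17, -0.51 and -0.45, nearer to 0 than that of the 8 genes.

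Msmo1 and Sc5d, a demethylase and a desaturase of the late sterol steps, were lower in the groups with more days in serum. Those groups also had fewer days of culture before serum. Msmo1 averaged 35.9 ± 8.68 FPKM in FCS 1d, 26.1 ± 5.71 in FCS 3d and 12.2 ± 4.22 in FCS 5d, against 70.7 ± 21.4 in TIC, and FCS 5d was lower than FCS 1d by -1.51 ± 0.29 on the log2 scale (limma adjusted p = 0.0018) with no overlap of libraries. Sc5d averaged 16.0 ± 7.55, 8.48 ± 2.53 and 5.47 ± 2.65 FPKM in FCS 1d, 3d and 5d, against 22.2 ± 8.22 in TIC, with FCS 5d lower than FCS 1d by -1.37 ± 0.36 (adjusted p = 0.024). In all, 4 of the 24 genes were lower in FCS 5d than in FCS 1d, against 3.46% of all tested genes, the other 2 being the lysosomal lipase Lipa at -1.34 (adjusted p = 0.0013) and the sterol esterifying enzyme Soat1 at -1.12 (adjusted p = 0.045). The call of Soat1 was lost without any 1 of 8 of the 9 libraries compared (all but FCS 1d 4), that of Sc5d without FCS 1d 1, FCS 1d 5, FCS 5d 2, FCS 5d 3 or FCS 5d 4, and those of Msmo1 and Lipa were kept without each of them in turn.

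Several other steps did not pass the test in serum. Mvd, the decarboxylase of the mevalonate branch, differed from TIC by -0.64, -0.21 and -0.45 on the log2 scale in FCS 1d, 3d and 5d. Nsdhl, a dehydrogenase acting beside Msmo1, differed by -0.87, -0.84 and -0.82 (limma adjusted p = 0.11, 0.077 and 0.072). Dhcr7, the last reductase towards cholesterol, differed by -0.86, -0.46 and -0.64, and Scap by 0.59, 0.45 and -0.05. Stard4, a cytosolic sterol carrier, differed by -0.02, -0.39 and 0.31. Lss, which closes the sterol ring, was lower in FCS 3d by -1.67 ± 0.47 (adjusted p = 0.023), a call lost without FCS 3d 1 (-1.17, adjusted p = 0.14). Npc1, which moves sterol out of lysosomes, was lower by -0.72 in FCS 3d (adjusted p = 0.032) and -0.67 in FCS 5d (adjusted p = 0.04), and these calls were lost without any 1 of 5 (FCS 3d) and any 1 of 9 (FCS 5d) of the 10 libraries compared. The FCS 3d call of Sc5d was lost without TIC 3, FCS 3d 2 or FCS 3d 4.

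Between TIC and Acute, 5 of the 24 were higher (Soat1, Mbtps2, Lss, Stard4 and Acat2) and 5 lower (Insig2, Mvk, Lrp1, Ggps1 and Npc1), beside 14.7% and 27.7% of all tested genes, and the median of the list was 0.09. Taken in either direction, 10 of the 24 is near the 42.4% of all tested genes that were called. Soat1 was higher by 2.79 ± 0.34 and Mbtps2, a protease that frees SREBPs, by 1.84 ± 0.40, while Insig2 was lower by -2.24 ± 0.43 and mevalonate kinase Mvk by -2.04 ± 0.47. Lrp1, a scavenging lipoprotein receptor, was lower by -1.45 ± 0.26 and Npc1 by -0.93 ± 0.23. The calls of Lss, Stard4, Acat2 and Ggps1 were lost without single Acute libraries.

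**Figure D3:**
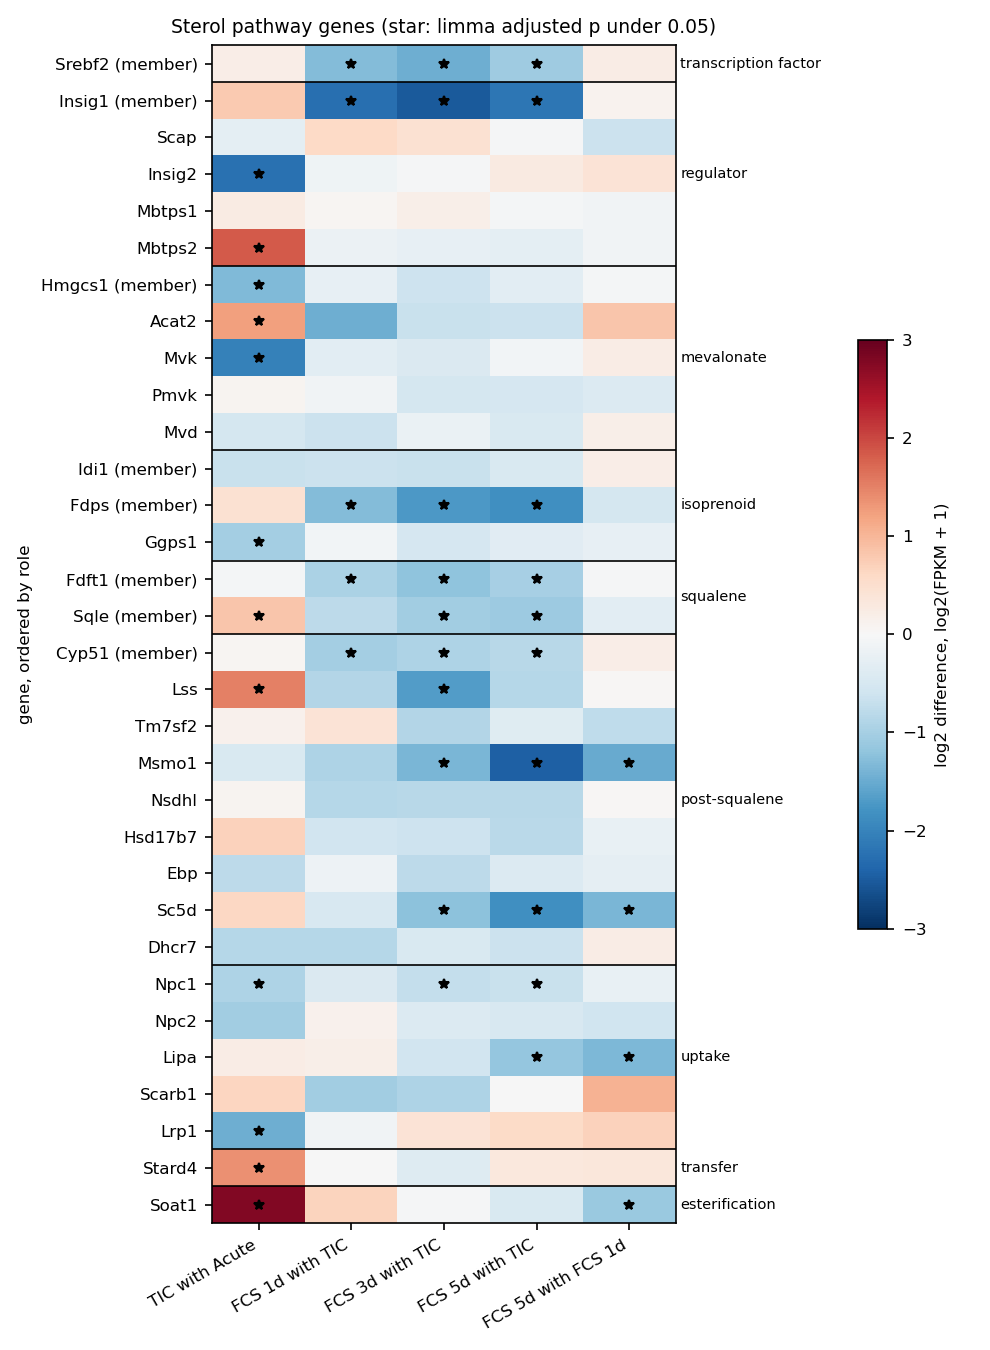
Log2 difference (colour, from blue for lower to red for higher) of the 8 genes and the 24 genes of the pathway list (rows, grouped by role) in 5 comparisons (columns). Stars mark limma's adjusted p under 0.05. The 3 columns of serum with TIC are mostly blue and hold no star for a rise, and the column of TIC with Acute holds both colours.

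A list of 19 genes, of which 16 were tested, was taken for comparison. Most are genes under the related factor SREBP1 or the sterol-activated receptor LXR. The list also holds the LXR genes Nr1h2 and Nr1h3 themselves and enzymes that oxidise sterols. Of these enzymes, Ch25h and Cyp27a1 enter the counts that follow. SREBP1, from Srebf1, drives fatty acid synthesis, is itself an LXR target, and shares the SCAP and INSIG machinery. In serum against TIC, 7 of the 16 were lower after 1 day, 9 after 3 days and 8 after 5 days, with none higher and medians of -0.63, -1.04 and -0.84, where 1.70%, 5.95% and 8.10% of all tested genes were lower. Srebf1 differed by -2.53, -2.97 and -2.85 in FCS 1d, 3d and 5d, beside -1.30, -1.46 and -1.07 for Srebf2. Fatty acid synthase Fasn passed the test in FCS 1d and not later, at -1.11, -0.29 and -0.43 (limma adjusted p = 0.0091, 0.57 and 0.33). The desaturase gene Scd2 differed by -2.66, -3.78 and -4.39, and Scd1 was listed at 0 in 3 of 4 FCS 3d and in all 4 FCS 5d libraries.

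Of the sterol exporters, Abcg1 was lower in all 3 serum groups, by -1.75 ± 0.28, -2.23 ± 0.30 and -1.56 ± 0.30 on the log2 scale. Abca1 held 28.4, 33.2, 40.8, 45.5 and 25.9 FPKM in FCS 1d, against 29.7 (lowest), 38.6 (median) and 49.5 (highest) in TIC, a log2 difference of -0.18 (95% interval -0.68 to 0.32). It was lower in FCS 3d (-1.23 ± 0.26, limma adjusted p = 0.0027) and in FCS 5d (-0.81 ± 0.26, adjusted p = 0.038), where 1 library overlapped TIC, the FCS 5d call being lost without TIC 2, TIC 3, TIC 6, FCS 5d 1 or FCS 5d 2. Mylip, a ubiquitin ligase gene under LXR, was lower in FCS 3d (-0.87, adjusted p = 0.022), a call lost without FCS 3d 2, FCS 3d 3 or FCS 3d 4, and at -0.56 in FCS 1d and -0.57 in FCS 5d did not pass. Ch25h, which makes 25-hydroxycholesterol, a strong inhibitor of SREBP2 processing, was not called in FCS 1d (-0.70) or FCS 3d (0.25) and was lower in FCS 5d (-1.32 ± 0.29, adjusted p = 0.0034). Between TIC and Acute 10 of the 16 were higher and 1 (Apoe) lower, where 14.7% and 27.7% of all tested genes were. Among the 10 were Abca1 at 3.38 ± 0.28, Abcg1 at 1.98 ± 0.33, Ch25h at 2.17 ± 0.32 and Srebf1 at 1.16 ± 0.28, beside 0.20 ± 0.29 for Srebf2.

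**Figure D4:**
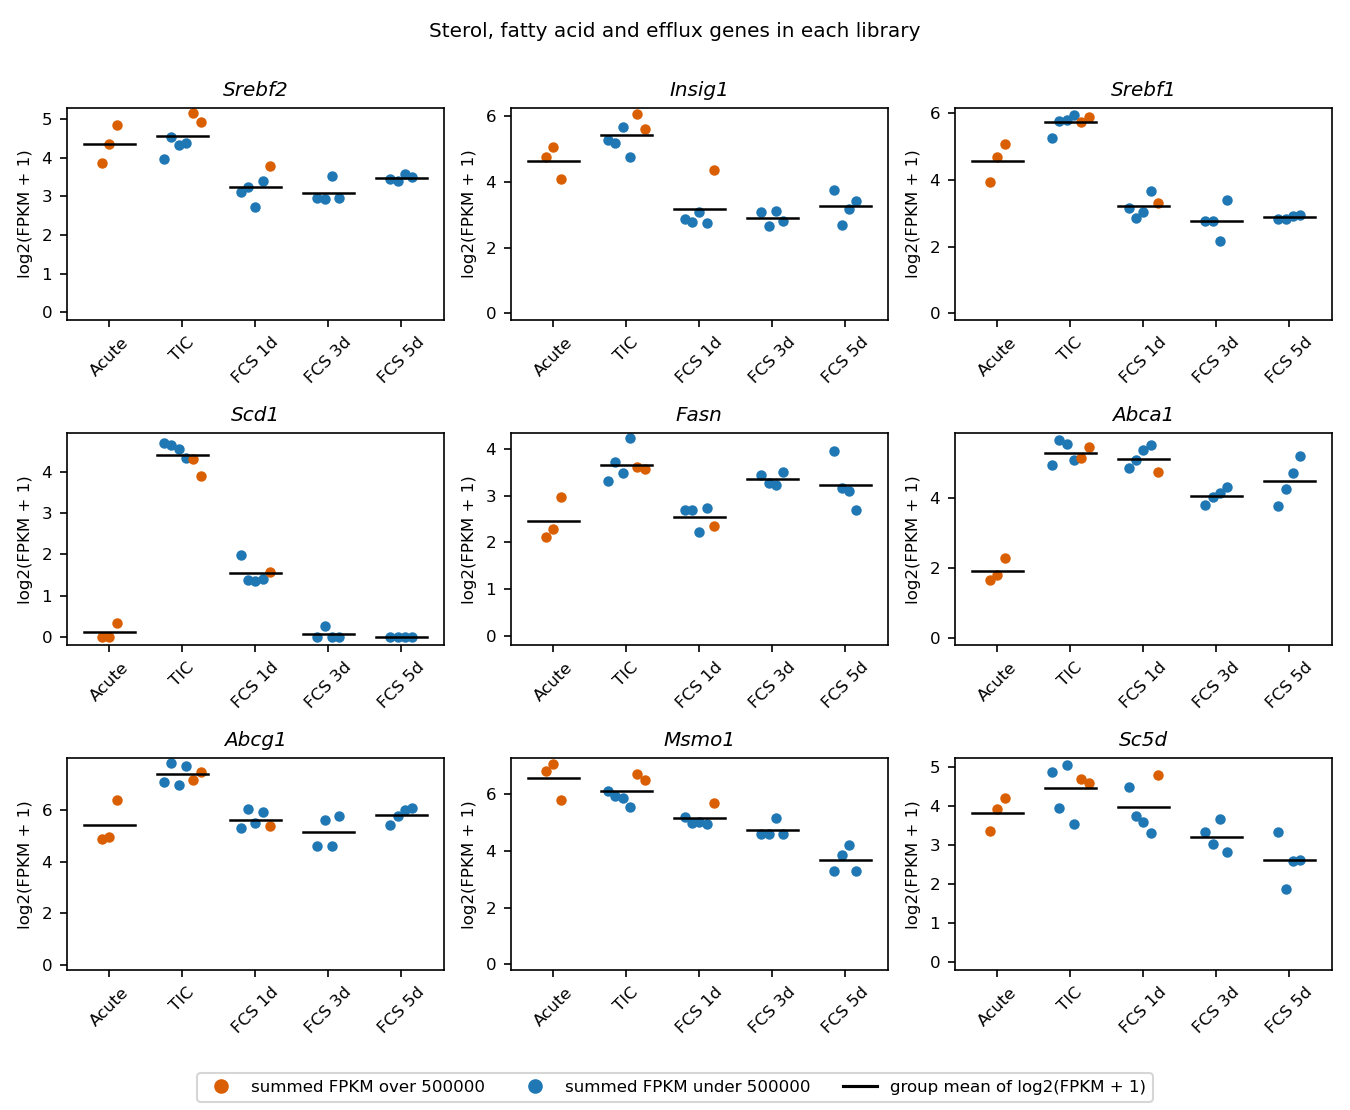
Log2(FPKM + 1) (vertical axis) of 9 genes in each library, by group (horizontal axis); points are libraries, orange where summed FPKM was over 500000 and blue where under, and lines are group means of log2(FPKM + 1). Srebf1 falls with Srebf2 and Insig1 in serum, Abca1 in FCS 1d overlaps TIC, and Msmo1 and Sc5d have their lowest group means in FCS 5d.

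Over the 22 samples, Pearson's r of log2(FPKM + 1) between pairs of the 8 genes ran from 0.29 (Hmgcs1 with Sqle) to 0.89 (Insig1 with Cyp51), with a median of 0.60 over 28 pairs. Taken as deviations from the group means, r ran from -0.20 to 0.57, with a median of 0.16, so most of the likeness lies between groups. Against the mean standardised profile of the 8, which contains each of them, Insig1 had r = 0.94, Cyp51 0.91 and Srebf2 0.88, and Hmgcs1 the lowest value at 0.64. Samples of a group share their condition and libraries share their scaling, so these values are descriptions.

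The genes outside the 8 and the list whose profile was most like that mean were Crot (r = 0.89), which handles fatty acids in peroxisomes, Lpcat3 (0.89), which builds polyunsaturated phospholipids, Rnf14 (0.88), a ubiquitin ligase, LOC308990 (0.88), Elovl1 (0.88), an elongase of very long fatty acids, and Ptprc (0.88), which encodes CD45. These genes, and the most opposite ones below, were picked by r over the same 22 samples. Their differences between groups therefore follow largely from that choice. Lpcat3 had 92.2 to 109.8 FPKM in FCS 1d, 90.8 to 105 in FCS 3d and 82.1 to 129 in FCS 5d, against 236 (lowest), 245 (median) and 262 (highest) in TIC. Within groups its deviations had r = -0.27 with those of the 8 genes, and those of Rnf14 and Elovl1 had r = 0.80 and 0.76. The most opposite profiles were those of glutamine synthetase Glul (r = -0.92), the lysosomal saposin precursor Psap (-0.91) and the RNA-binding protein gene Hnrnpa1 (-0.90). Glul was higher in serum by 1.72 ± 0.24, 1.61 ± 0.25 and 1.00 ± 0.25 on the log2 scale and Psap by 1.41 ± 0.25, 1.24 ± 0.26 and 1.05 ± 0.26 in FCS 1d, 3d and 5d. Of the pathway list, Msmo1 (r = 0.82), Npc1 (0.80) and Nsdhl (0.78) were the most like the 8 genes, while Scap (-0.34), Soat1 (-0.34) and Mbtps1 (-0.40) had the lowest r.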

How the data were processed

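The table holds FPKM per gene for 22 libraries of rat microglia, as deposited by the authors. Per the submitters' processing notes, HISAT2 2.0.3, Cufflinks 2.2.1 and the rn6 build were named; annotation and strandedness: not given in the sources used here. FPKM carry no depth, so no counting interval is given. The labels name the replicates biological but not their animals, and mention 2 sequencing batches without assigning samples, so p-values measure the spread between these samples.

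From the FPKM, log2(FPKM + 1) was fitted with limma 3.58.1 (R 4.3.3) on genes that reached 1 FPKM in 3 or more samples, as 1 model of 5 group means over 22 samples, with a trended, robust variance prior. P-values were adjusted by the Benjamini-Hochberg method over the 9691 tested genes in each of 10 comparisons, and a gene was called at an adjusted p under 0.05. Scripts were tested on simulated data. Same-numbered libraries deviated together weakly on average (mean r = 0.119, -0.103 to 0.477 over 37 pairs) and were not treated as pairs. The 154 other pairs had a mean r of -0.0276 (-0.330 to 0.512), and both sets include pairs with Acute, which was not cultured. No 2 libraries had identical values; the closest, FCS 3d 2 and FCS 3d 4, had r = 0.979.

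Members and lists were chosen with earlier results of these data known, and their agreement with those results is no independent support. Named were the 8 genes, 10 fixed pathway genes and up to 4 called pathway genes with the largest difference per comparison. Also named were 8 genes of the SREBP1, LXR and sterol oxidation list, and the 6 most alike and 3 most opposite profiles. Other called genes of the lists were named beside their count after their values were seen. Alternatives were pseudocounts of 0.1 and 5, no filter and a filter of 5 FPKM, median-of-ratios scaling, only the compared groups, a replicate block, the divisions of libraries as terms and leaving out each replicate, and, added after seeing the data, subsets of libraries by summed FPKM and zeros. Sequences are RefSeq promoters of GRCr8; motifs were chosen with the windows in view. Some genes of the pathway are not reported here.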

Additional observations from a re-analysis of the deposited data

Results flagged for a closer look

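Within the groups of 4 to 6 libraries, 32 gene and group combinations of the 8 genes were searched for a library set apart. The rule was a gap to the others that is large against the group's range (Dixon's 95% critical value), and 9 had one. By chance that rule gives about 1 in 20 for independent, normally distributed values. The 8 genes share their libraries and FPKM may be skewed, so the 9 cannot be set against that rate. Library FCS 1d 5, the 1 serum library with a summed FPKM over 500000, held 4 of them and was the highest in each. It had 19.5 FPKM of Insig1 (5.70 to 7.52 in the other FCS 1d libraries), 10.5 FPKM of Idi1 (1.40 to 3.16), 102 FPKM of Fdps (30.8 to 45.7) and 22.2 FPKM of Cyp51 (14.5 to 16.5).

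The other 5 were spread over 5 libraries. Hmgcs1 was at 16.2 FPKM in TIC 3 (2.96 to 7.88 in the other TIC libraries) and at 8.00 in FCS 5d 1 (4.34 to 4.87). Srebf2 was at 10.5 FPKM in FCS 3d 3 (6.67 to 6.85) and Fdft1 at 8.07 FPKM in FCS 3d 2 (5.90 to 6.25). Idi1 was low, at 1.90 FPKM, in FCS 5d 4 (4.64 to 4.86). What sets these libraries apart was not tested.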

How the results depend on the processing

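Of 7036 results for single genes under an alternative, 6290 kept their direction and their side of the threshold, 301 changed sign with no call on either side, 352 lost a call, 92 gained one and 1 with a call changed sign. Of the 1656 for the 8 genes the numbers were 1474, 55, 112, 14 and 1. The last was Idi1 in FCS 1d with Acute in libraries with summed FPKM over 500000 (0.14); the cause was not tested. The replicate block gave -2.23 for Insig1, -1.22 for Srebf2 and -1.24 for Fdps in FCS 1d with TIC and moved no count of the 8 genes by over 1.5 times. Only FPKM were used, so depth limits low genes to an unknown extent, and subsets hold 1 to 4 libraries a group.

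Counts of the 8 genes called moved as follows. With few zeros (under 800 tested genes at 0) there were 2, 2 and 2 in FCS 1d, 3d and 5d with Acute, 3 in FCS 1d with TIC and 1 in TIC with Acute; with many zeros 3, 4 and 1 in FCS with Acute, 1, 2 and 0 in FCS with TIC and 0 in TIC with Acute. With summed FPKM over 500000 there were 0 in FCS 1d with Acute, FCS 1d with TIC (1 serum library, no gene of any kind called) and TIC with Acute. With that division as a term there were 3, 2 and 2 in FCS with Acute. FCS 5d with Acute gave 3 with median-of-ratios scaling and 4 with only the 2 groups, which also gave 1 in TIC with Acute. Leaving out each replicate gave 5 to 7, 6 to 7 and 4 to 7 in FCS with Acute, 5 to 6 in each of FCS 1d, 3d and 5d with TIC, and 1 to 3 in TIC with Acute.

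For the pathway list, few zeros gave 4, 6 and 8 in FCS with Acute, 2 in FCS 5d with FCS 1d and 5 in TIC with Acute. Many zeros gave 9 in FCS 5d with Acute, 1, 0 and 1 in FCS with TIC and 0 in FCS 5d with FCS 1d. Summed FPKM over 500000 gave 0 in FCS 1d with Acute and 1 in TIC with Acute, and under 500000 gave 3 in FCS 1d with TIC and 2 in FCS 5d with FCS 3d. The division by summed FPKM as a term gave 4 and 6 in FCS 3d and 5d with Acute, 2 and 2 in FCS 1d and 3d with TIC and 1 in FCS 5d with FCS 3d, and that by zeros 2 in FCS 1d with TIC. Median-of-ratios gave 9 in FCS 5d with Acute, 2 in FCS 1d with TIC, 2 in FCS 3d with FCS 1d and 1 in FCS 5d with FCS 3d, and the replicate block 2 in FCS 1d with TIC and 1 in FCS 5d with FCS 3d. A pseudocount of 5, a filter of 5 FPKM and only the 2 groups each gave 1 in FCS 1d with TIC. Leaving out each replicate gave 0 to 2 in FCS 1d, 2 to 4 in FCS 3d and 3 to 4 in FCS 5d with TIC, 2 to 4 in FCS 5d with FCS 1d, and 7 to 11 in TIC with Acute.

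Over all tested genes, few zeros gave 1821, 1910 and 2160 in FCS with Acute, 129 in FCS 1d with TIC, 32 in FCS 3d with FCS 1d, 22 in FCS 5d with FCS 3d and 1974 in TIC with Acute. Many zeros gave 54, 187 and 131 in FCS with TIC, and 2, 46 and 6 between serum durations (in the order 3 with 1, 5 with 1 and 5 with 3 days, here and below). Summed FPKM over 500000 gave 266 in FCS 1d with Acute, 0 in FCS 1d with TIC and 934 in TIC with Acute. Under 500000 it gave 615, 1690 and 1931 in FCS with TIC, and 322, 994 and 268 between serum durations. The division by summed FPKM as a term gave 458 in FCS 1d with TIC, 169 in FCS 3d with FCS 1d and 136 in FCS 5d with FCS 3d, and that by zeros 208, 817 and 109 between serum durations. The replicate block gave 489 in FCS 1d with TIC, 167 in FCS 3d with FCS 1d and 158 in FCS 5d with FCS 3d. Only the 2 groups gave 232 in FCS 3d with FCS 1d, 163 in FCS 5d with FCS 3d and 2727 in TIC with Acute, median-of-ratios 173 in FCS 3d with FCS 1d and 102 in FCS 5d with FCS 3d, and a pseudocount of 0.1 gave 62 in FCS 3d with FCS 1d. Leaving out each replicate gave 212 to 339, 619 to 954 and 816 to 1262 in FCS with TIC, and 30 to 95, 344 to 456 and 27 to 54 between serum durations.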
